A study of Mus musculus with 9 samples.

Results

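The citric acid cycle and mitochondrial fatty acid oxidation were described here through 31 genes, chosen by symbol for the enzymes they encode, with earlier results of these data known. Of these genes, 14 encode enzymes of the cycle or its refilling and 17 encode enzymes of fatty acid import and β-oxidation. All 31 were found among the 54532 genes of the deposited expression table, and all 31 passed the filter on low values, a mean of at least 1 FPKM over the 9 libraries, which left 17266 genes for testing. FPKM is a read count per kilobase of gene and per unit of library size, so levels can be compared between genes per length. RNA came from male germ cells of mice at PD 35, titled spermatocytes, and was sequenced in 3 groups of 3 libraries. The Control group is labelled WT, the ClpP cKO group ClpP knockout and the ClpX cKO group ClpX knockout. In the cKO groups the gene was deleted in germ cells with Stra8-Cre, whose promoter becomes active in differentiating spermatogonia, so that cells without Cre activity keep the gene. The labels state neither how the cells were isolated nor which exons were deleted, nor whether a library is 1 animal or a pool. A p-value here is therefore a statement about the spread among these 9 libraries, which may be technical.

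ClpP forms a barrel-shaped protease inside mitochondria, and ClpX is its ATP-driven partner, which unfolds substrates and threads them into the barrel. The citric acid cycle oxidises acetyl-CoA in the same compartment, the mitochondrial matrix, and hands its electrons to the respiratory chain, with steps that produce NADH, FADH2 and a nucleoside triphosphate. Fatty acids enter as acyl-carnitines through the carnitine shuttle and are shortened in rounds of dehydrogenation, hydration, a second dehydrogenation and thiolysis, each round releasing acetyl-CoA. In the testis, Sertoli cells are known for using fatty acid oxidation while feeding lactate to germ cells, and spermatocytes and spermatids carry germ cell versions of several metabolic enzymes, such as Pdha2 and Oxct2a.

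The libraries held 14334436 to 17021685 gene reads, and both extremes were controls. Clpp lay at 8.46 to 9.36 FPKM in the controls, followed by 3.69 to 6.15 in ClpP cKO and by 12.5 to 14.1 in ClpX cKO. Clpx lay at 54.7 to 59.3, 36.0 to 40.3 and 11.3 to 15.6 FPKM in the same order, so each targeted gene was lowest in its own knockout, and Clpx was also below control in ClpP cKO. No gene of the marker lists was at 0 in all libraries. Summed FPKM of 12 elongating spermatid markers was 17980, 17017 and 8236 in the controls, followed by 4762 to 5666 in ClpP cKO and by 1759 to 2689 in ClpX cKO. Summed FPKM of the Sertoli cell markers was 611 to 638, 876 to 979 and 1093 to 1529, so somatic transcripts were present in every library labelled germ cells. On the first principal component Control 3, at -39.2, lay apart from the other controls at -55.8 and -52.4, and ClpX cKO 1, at 19.1, lay apart from the other ClpX cKO libraries at 54.7 and 55.5.

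Stretches of promoter sequence from 3 places are shown first, because the genes beside them carry the contrasts described below: the gap shared by the oppositely directed partners Hadha and Hadhb, of which Hadha was lower in both knockouts and Hadhb was not, the succinyl-CoA ligase gene Suclg2, which rose in ClpX cKO where its more abundant alternative Sucla2 fell, and Cpt1a, among the largest increases. Each is read 5′ to 3′ on the strand of the named gene from RefSeq promoters of GRCm38.p6, and capitals mark a GC box, GGGCGG or its complement, with overlapping matches counted separately. Each is the longest run of the 250 bases before the RefSeq start site that lies in no annotated exon of GENCODE M21, so a stretch under 250 bases does not show all of them.
Hadhb, plus strand, chr5:30155163-30155247: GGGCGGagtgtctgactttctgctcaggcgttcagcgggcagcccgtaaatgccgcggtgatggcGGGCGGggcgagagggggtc
Suclg2, minus strand, chr6:95718847-95719096: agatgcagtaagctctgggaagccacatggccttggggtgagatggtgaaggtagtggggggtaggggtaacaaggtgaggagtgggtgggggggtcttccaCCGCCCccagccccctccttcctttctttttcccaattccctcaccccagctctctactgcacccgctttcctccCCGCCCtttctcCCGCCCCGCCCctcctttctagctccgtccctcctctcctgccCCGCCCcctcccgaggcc
Cpt1a, plus strand, chr19:3323051-3323284: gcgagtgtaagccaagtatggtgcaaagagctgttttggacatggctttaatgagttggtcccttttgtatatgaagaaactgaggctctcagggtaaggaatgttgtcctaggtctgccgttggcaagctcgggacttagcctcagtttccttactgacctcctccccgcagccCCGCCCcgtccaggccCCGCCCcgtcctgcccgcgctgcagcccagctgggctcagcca
The 85 bases between Hadha and Hadhb hold 2 GC boxes, the 250 bases of Suclg2 hold 5 and the 234 bases of Cpt1a hold 2. The matching run of Sucla2, 96 bases long and not shown, holds 0, and a GC box of Sucla2 lies outside it, at -77 from the start site. That RefSeq start site, at 73552786, lies inside the gene as the deposited annotation places it, from 73525319 to 73596142. The runs of Sucla2 and Suclg2 also differ in length, so their box counts cannot be compared.

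A 300-base RefSeq window, 250 bases before to 50 after the start site, was matched for 27 of the 31 genes. On both strands, GGGCGG was in a window of 20 of the 27 genes (74.1%), against 38.2% of all 26994 genes with windows, and the median GC content was 60.3% in the members' windows and 52.7% in all windows. The cyclic AMP response element TGACGTCA was in the windows of Ogdh and Mdh2, 2 of 27 genes, against 2.03% of all genes. The estrogen-related receptor site TCAAGGTCA was in 0 of 27 (0.467% of all genes), the PPAR site of AGGTCA repeated directly with 1 base between in 0 of 27 (0.0482%) and the NRF1 site in 0 of 27 (1.41%). A match is a description of letters and shows neither binding nor a cause of any change.

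Fitted changes were positive for 22 of the 31 genes in ClpP cKO and for 23 in ClpX cKO, while a few abundant transcripts were lower. In ClpP cKO against control, 9 of the 31 genes rose and 3 fell, and the median change on the log2(FPKM + 1) scale was 0.29. The background was 20.7% of the 17266 tested genes higher and 24% lower, with a median of 0.01, and the members' shares were 29.0% and 9.68%. All 31 are protein-coding, and over the 12827 tested protein-coding genes 25.8% were higher and 23.5% lower, with a median of 0.08. The 29.0% that rose in ClpP cKO was thus near the share of protein-coding genes. In ClpX cKO against control, 19 rose and 4 fell with a median of 0.46, which is 61.3% and 12.9% of the genes, against a background of 32.1% higher and 33.5% lower. Over protein-coding genes that background was 40.1% and 30.5%, with a median of 0.11. Rose and fell mean an adjusted p under 0.05 in limma over all 17266 genes, two-sided. The 3 knockout values lay above all 3 control values for 18 genes and below them for 3 genes in ClpP cKO, where 31.2% of tested genes lay apart upward and 30.5% downward. In ClpX cKO the groups lay apart upward for 21 genes and downward for 5, against 34.8% and 35% of tested genes. Both comparisons share the 3 controls, so they are not independent of each other. In whole-cell RNA, fewer cells of a type and less RNA per cell cannot be told apart.

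**Figure D1:**
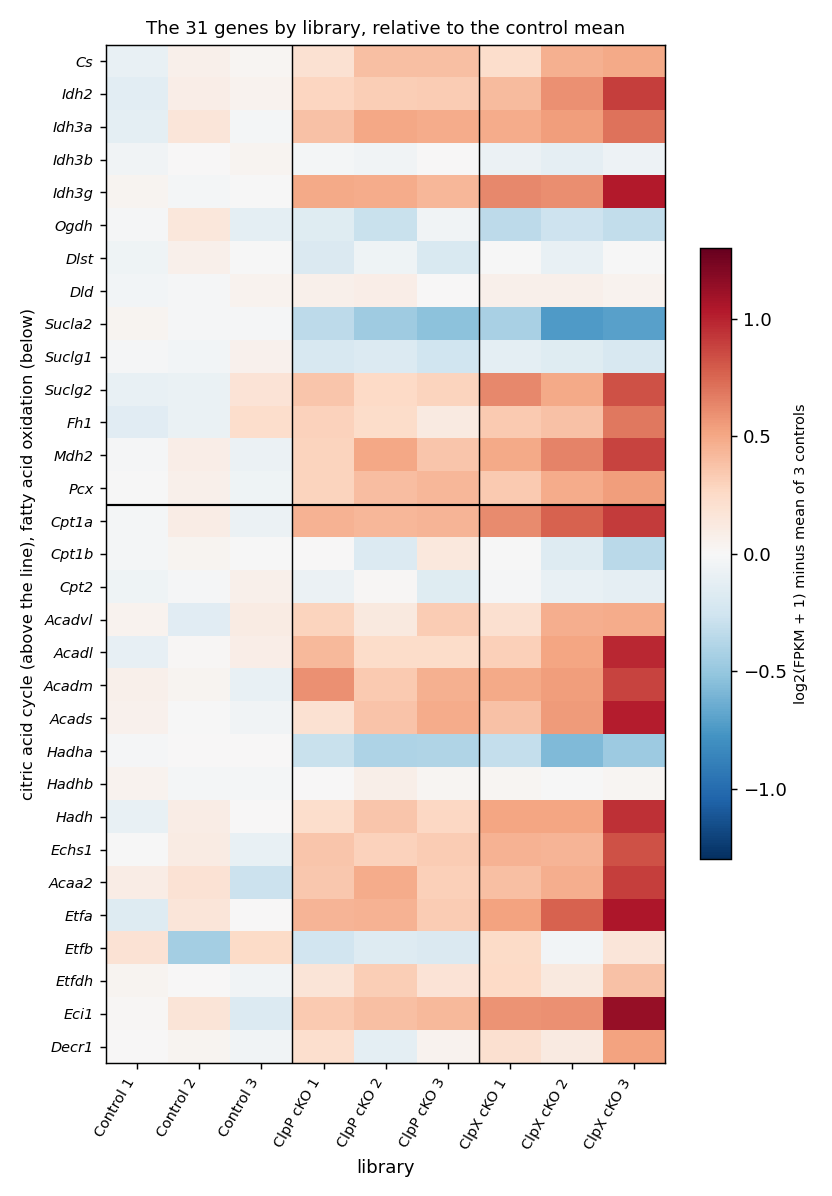
Each row is 1 of the 31 genes and each column 1 library; colour gives log2(FPKM + 1) minus the mean of the 3 controls, red above and blue below. Most rows turn red from the controls to ClpX cKO, with Sucla2, Suclg1, Hadha and Ogdh the called rows that turn blue, and ClpX cKO 3 is the reddest column.

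The scaling of the libraries bears on these counts. The deposited values carry a library-size denominator that was 0.919 ± 0.028 times the library's own gene reads in the controls, followed by 1.05 ± 0.0037 in ClpP cKO and by 1.07 ± 0.017 in ClpX cKO (mean ± SD, n = 3 each). Scaled by their own gene reads instead, 21 genes rose and 1 fell in ClpP cKO, and 22 rose and 2 fell in ClpX cKO. That scaling moved the median of all tested genes to 0.16 and 0.18, and the share of calls that were higher from 46.3% to 71.4% over all genes in ClpP cKO and from 49.0% to 63.3% in ClpX cKO. With quantile normalization 11 genes rose and 0 fell in ClpP cKO (18 with an unadjusted p under 0.05 in either direction), and 22 rose and 0 fell in ClpX cKO (24), and higher calls made up 60.2% and 57.4% of those over all genes. limma voom on the recovered reads gave 21 and 1, and 23 and 2, with 70.1% and 63.3% of all calls higher. Without Control 3 and ClpX cKO 1, 11 rose and 3 fell in ClpP cKO, and 18 rose and 3 fell in ClpX cKO. Ratios of 2 genes within a library do not depend on a constant factor per library, such as own totals, but do change under quantile normalization. They are given below for partner subunits.

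Citrate synthase, encoded by Cs, joins acetyl-CoA to oxaloacetate and opens the cycle. Its FPKM was 14.6, 16.5 and 16.0 in the controls, 18.1, 20.8 and 20.9 in ClpP cKO and 18.5, 21.99 and 22.4 in ClpX cKO. The knockout libraries all lay above the controls, and Cs rose by 0.32 ± 0.09 (log2 ± SE, with an adjusted p of 0.025) in ClpP cKO and by 0.39 ± 0.09 (adjusted p = 0.0061) in ClpX cKO. Pcx, pyruvate carboxylase, refills the cycle with oxaloacetate. It went from 12.2 ± 0.528 FPKM in the controls to 16.1 ± 0.875 and 17.1 ± 1.31 (mean ± SD, n = 3 each), and it rose in both knockouts, by 0.37 and 0.46 with adjusted p of 0.0099 and 0.0011.

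The NAD-dependent isocitrate dehydrogenase is built from a catalytic subunit, Idh3a, and the subunits Idh3b and Idh3g. Idh3a was at 4.87, 6.14 and 5.29 FPKM in the controls, 7.36, 8.08 and 7.98 in ClpP cKO and 7.93, 8.38 and 9.49 in ClpX cKO. Idh3g, on chromosome X, was at 6.13, 5.79 and 5.89, then 8.75, 8.66 and 8.36, then 9.67, 9.56 and 13.1 FPKM. Both subunits rose in both knockouts with no overlap of the libraries: Idh3a by 0.46 ± 0.10 and 0.58 ± 0.10 (adjusted p = 0.011 and 0.0011), and Idh3g by 0.47 ± 0.11 and 0.75 ± 0.11 (adjusted p = 0.013 and 0.00068). Idh3b, the most abundant of the 3 transcripts, was at 25.5, 26.3 and 27.0 FPKM in the controls, 25.9, 25.4 and 26.3 in ClpP cKO and 24.8, 24.1 and 25.004 in ClpX cKO. It was not called, with changes of -0.02 ± 0.05 and -0.09 ± 0.05 (adjusted p = 0.76 and 0.17), although its ClpX cKO libraries lay below all controls. The ratio of Idh3b to Idh3a went from 4.87 ± 0.516 in the controls to 3.32 ± 0.185 in ClpP cKO and 2.88 ± 0.244 in ClpX cKO, and that of Idh3b to Idh3g from 4.43 ± 0.231 to 3.01 ± 0.118 and 2.33 ± 0.369 (mean ± SD, n = 3 each). Each of these 4 differences had an exact two-sided permutation p of 0.1, the smallest that 3 libraries against 3 can give. The mitochondrial NADP-dependent enzyme, Idh2, went from 2.94 to 3.59 FPKM in the controls to 4.75 to 7.04 in ClpX cKO and rose there by 0.63 ± 0.12 (adjusted p = 0.0023); its change of 0.31 in ClpP cKO missed the threshold (adjusted p = 0.070).

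The 2-oxoglutarate dehydrogenase complex joins Ogdh, which decarboxylates 2-oxoglutarate, Dlst, which carries the succinyl group on its lipoyl arm, and Dld, which reoxidises that arm. Ogdh was at 36.9, 41.2 and 33.9 FPKM in the controls, 33.3, 30.2 and 35.9 in ClpP cKO and 29.3, 30.6 and 29.6 in ClpX cKO. The ClpX cKO libraries lay below every control and Ogdh fell there by 0.31 ± 0.09 (adjusted p = 0.013), whereas the ClpP cKO libraries overlapped the controls (change -0.17, adjusted p = 0.15). The Ogdh fall in ClpX cKO was not called with the libraries' own totals (-0.09, adjusted p = 0.34) and had the opposite sign under quantile normalization. Dlst, at 13.4 to 14.7 FPKM in the controls, and Dld, at 26.1 to 27.6, were not called in either knockout, with changes between -0.15 and 0.06. The ratio of Ogdh to Dlst was 2.66 ± 0.200 in the controls, followed by 2.65 ± 0.371 in ClpP cKO and by 2.18 ± 0.136 in ClpX cKO (n = 3 each), with an exact permutation p of 0.8 and 0.1.

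Succinyl-CoA ligase pairs the common subunit Suclg1 with either Sucla2, which makes the enzyme ATP-forming, or Suclg2, which makes it GTP-forming. Sucla2, on chromosome 14 from 73525319 to 73596142, had the highest level of the 31 genes, at 114, 109.9 and 109.8 FPKM in the controls, 87.2, 80.2 and 76.3 in ClpP cKO and 82.5, 66.4 and 67.6 in ClpX cKO. All 6 knockout libraries lay below the controls, and Sucla2 fell by 0.45 ± 0.09 (adjusted p = 0.011) and 0.62 ± 0.09 (adjusted p = 0.00076). Suclg2 was at 2.89, 2.90 and 3.68 FPKM in the controls, 4.31, 3.96 and 4.05 in ClpP cKO and 5.39, 4.83 and 6.34 in ClpX cKO. Its libraries lay above the controls in both knockouts, and it rose in ClpX cKO by 0.65 ± 0.11 (adjusted p = 0.0012), while the change of 0.30 in ClpP cKO missed the threshold (adjusted p = 0.053). Suclg1 was at 32.7, 32.3 and 34.4 FPKM in the controls, 28.6, 29.1 and 27.5 in ClpP cKO and 30.3, 29.5 and 28.6 in ClpX cKO, below the controls in each knockout library. It fell by 0.21 ± 0.06 (adjusted p = 0.019) and by 0.16 ± 0.06 (adjusted p = 0.033). The Suclg1 call in ClpX cKO was lost in 12 of 22 alternatives, among them the fit on 6 libraries and the omission of any 1 control, and the call in ClpP cKO was lost in 7 of 22, among them the omission of Control 1, Control 3, ClpP cKO 2 or ClpP cKO 3. The ratio of Sucla2 to Suclg2 was 35.7 ± 5.13 in the controls, followed by 19.8 ± 0.806 in ClpP cKO and by 13.2 ± 2.36 in ClpX cKO (mean ± SD, n = 3 each, exact permutation p = 0.1 for each knockout). The libraries of this ratio did not overlap, at 29.8 or above in the controls, followed by 18.8 to 20.2 in ClpP cKO and by at most 15.3 in ClpX cKO. The calls of the subunits themselves depended on scaling: under quantile normalization Sucla2 changed by -0.07 and -0.11 (adjusted p = 0.52 and 0.27), and Suclg1 had the opposite sign in both knockouts, as it had in ClpX cKO with the libraries' own totals.

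**Figure D2:**
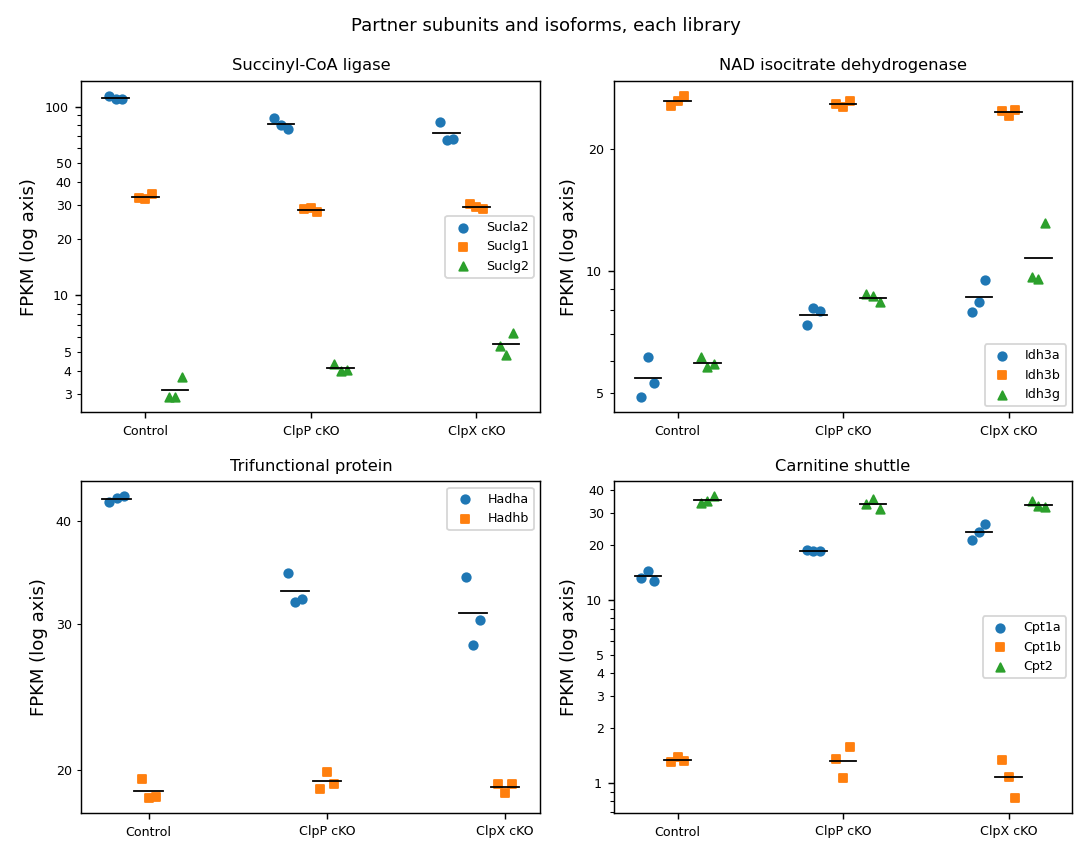
FPKM on a log axis for partner subunits and isoforms in 4 panels (succinyl-CoA ligase, NAD isocitrate dehydrogenase, trifunctional protein, carnitine shuttle); each symbol is 1 library and each line the mean of 3. Sucla2 and Hadha step down from the controls to the knockouts, Suclg2, Idh3a, Idh3g and Cpt1a step up, and Idh3b, Hadhb and Cpt2 stay within about the same band.

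Fh1, fumarase, and Mdh2, the mitochondrial malate dehydrogenase, catalyse the closing steps of the cycle. Mdh2 was at 12.4, 13.3 and 11.8 FPKM in the controls, 15.5, 18.0 and 16.3 in ClpP cKO and 18.0, 20.0 and 23.8 in ClpX cKO. It rose by 0.38 ± 0.11 (adjusted p = 0.021) and 0.67 ± 0.11 (adjusted p = 0.0009), with no overlap between control and knockout libraries. Fh1, at 8.36 to 11.2 FPKM in the controls and 12.1 to 15.7 in ClpX cKO, rose in ClpX cKO by 0.47 ± 0.13 (adjusted p = 0.010) and was not called in ClpP cKO (0.22, adjusted p = 0.18). Over the 14 genes of the cycle, 5 rose and 2 fell in ClpP cKO (median 0.26), and 8 rose and 3 fell in ClpX cKO (median 0.42). Their summed FPKM was 316 ± 4.06 in the controls, followed by 298 ± 3.19 in ClpP cKO and by 300.5 ± 8.27 in ClpX cKO (n = 3 each), and Sucla2 alone was 111 ± 2.16 of the control sum. With the libraries' own totals the order of these sums turned round, to 291 ± 8.38, 311 ± 2.90 and 323 ± 9.93.

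The carnitine shuttle brings long-chain acyl groups into the matrix, with Cpt1a and Cpt1b as the outer membrane transferases and Cpt2 as the inner one. Cpt1a, on chromosome 19 from 3323301 to 3385732, measured 13.2, 14.5 and 12.7 FPKM in the controls, 18.8, 18.5 and 18.7 in ClpP cKO and 21.2, 23.7 and 26.1 in ClpX cKO. The 3 groups did not overlap, and Cpt1a rose by 0.44 ± 0.08 (adjusted p = 0.0090) in ClpP cKO and by 0.76 ± 0.08 (adjusted p = 0.00045) in ClpX cKO. Cpt1b, the muscle isoform, was near the detection filter at 1.30, 1.40 and 1.33 FPKM in the controls, 1.36, 1.07 and 1.57 in ClpP cKO and 1.34, 1.08 and 0.834 in ClpX cKO, resting on 48 to 88 reads per library. It was not called (-0.01 and -0.18, adjusted p = 0.94 and 0.26), and 81.4% of its exon bases also belong to the gene model Gm44502, which the table lists at 0 FPKM. Cpt2, at 33.9 to 36.8 FPKM in the controls, was not called either, with changes of -0.07 and -0.08, although under quantile normalization it was higher in ClpX cKO (0.26, adjusted p = 0.015). The ratio of Cpt2 to Cpt1a went from 2.62 ± 0.248 in the controls to 1.79 ± 0.119 and 1.42 ± 0.204 (n = 3 each, exact permutation p = 0.1 for each knockout).

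The acyl-CoA dehydrogenases take the first electrons from acyl chains, from very long (Acadvl) through long (Acadl) and medium (Acadm) to short (Acads). Acadm was at 6.41, 6.24 and 5.62 FPKM in the controls, 9.70, 7.97 and 8.79 in ClpP cKO and 8.98, 9.33 and 12.1 in ClpX cKO. It was the dehydrogenase that rose in both knockouts, by 0.47 ± 0.12 (adjusted p = 0.016) and 0.64 ± 0.12 (adjusted p = 0.0016). Acadl was at 12.0, 13.1 and 13.8 FPKM in the controls, 17.7, 15.5 and 15.5 in ClpP cKO and 16.3, 18.9 and 26.5 in ClpX cKO, where ClpX cKO 3 stood well above the others. Acadl, Acads and Acadvl rose in ClpX cKO, by 0.60 ± 0.16, 0.65 ± 0.16 and 0.39 ± 0.11 (adjusted p = 0.0087, 0.0060 and 0.011). In ClpP cKO the changes of these genes were 0.30, 0.35 and 0.25, with adjusted p of 0.14, 0.095 and 0.083, although all their ClpP cKO libraries lay above the controls. Acadvl shares 42.9% of its exon bases with Dvl2 on the opposite strand. Dvl2 itself went from 7.68 to 11.2 and 12.3 FPKM, and as no source used here states that counting used strand, reads of Dvl2 and Acadvl cannot be told apart there.

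The trifunctional protein carries out the later steps on long chains, with the hydratase and dehydrogenase in Hadha and the thiolase in Hadhb. On chromosome 5 Hadha spans 30118304 to 30155162 on the minus strand and Hadhb 30155248 to 30184593 on the plus strand, with their RefSeq start sites 273 bases apart and 228 bases shared between their promoter windows. Hadha was at 42.2, 42.7 and 42.9 FPKM in the controls, 34.6, 32.0 and 32.2 in ClpP cKO and 34.2, 28.3 and 30.4 in ClpX cKO. All knockout libraries lay below the narrow control range, and Hadha fell by 0.36 ± 0.08 (adjusted p = 0.011) and 0.45 ± 0.08 (adjusted p = 0.0012). Hadhb was at 19.5, 18.5 and 18.5 FPKM in the controls, 19.0, 19.9 and 19.2 in ClpP cKO and 19.2, 18.8 and 19.2 in ClpX cKO, overlapping in all groups, with changes of 0.04 and 0.02 (adjusted p = 0.59 and 0.80). The ratio of Hadha to Hadhb was 2.26 ± 0.0829 in the controls, followed by 1.70 ± 0.111 in ClpP cKO and by 1.63 ± 0.140 in ClpX cKO (n = 3 each, exact permutation p = 0.1 for each knockout). Under quantile normalization the changes of Hadha were -0.10 and -0.09 (adjusted p = 0.27 and 0.29), and with the libraries' own totals they were -0.18 and -0.23 (adjusted p = 0.069 and 0.021).

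Shorter chains are handled by the hydratase Echs1, the dehydrogenase Hadh and the thiolase Acaa2. Hadh was at 7.25, 8.41 and 7.81 FPKM in the controls, 9.31, 10.3 and 9.64 in ClpP cKO and 11.5, 11.6 and 16.1 in ClpX cKO. Its groups stepped up without overlap, and it rose in ClpX cKO by 0.66 ± 0.12 (adjusted p = 0.0019), with 0.29 in ClpP cKO (adjusted p = 0.087). Echs1, at 2.68 to 3.24 FPKM in the controls, rose in both knockouts, to 3.87 to 4.06 and to 4.36 to 6.01, with changes of 0.33 and 0.57 (adjusted p = 0.046 and 0.0026). The Echs1 call in ClpP cKO was lost in 10 of 21 alternatives, among them median-of-ratios scaling and the omission of any 1 control or ClpP cKO library. Acaa2 was at 31.5, 33.6 and 24.02 FPKM in the controls, 37.9, 41.5 and 36.7 in ClpP cKO and 38.7, 41.3 and 55.5 in ClpX cKO. It lay above the controls in every knockout library, and it rose in ClpX cKO (0.59 ± 0.16, adjusted p = 0.010) and missed the threshold in ClpP cKO (0.38 ± 0.16, adjusted p = 0.075).

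Electrons from the dehydrogenases pass to the electron transfer flavoprotein, made of Etfa and Etfb, and from it through Etfdh to ubiquinone. Etfa was at 12.1, 15.4 and 13.7 FPKM in the controls, 18.9, 19.1 and 17.5 in ClpP cKO and 20.2, 24.1 and 29.5 in ClpX cKO. It rose by 0.41 ± 0.13 (adjusted p = 0.038) and 0.78 ± 0.13 (adjusted p = 0.0013), and no knockout library overlapped the controls. Etfb was at 6.24, 3.66 and 6.55 FPKM in the controls, 4.33, 4.64 and 4.55 in ClpP cKO and 6.53, 5.20 and 6.09 in ClpX cKO, on 65 to 128 reads per library. Its control libraries spread over the range of both knockouts, and it was not called (-0.20 and 0.13, adjusted p = 0.35 and 0.54); 53.0% of its exon bases also belong to Gm45233, which had a mean of at most 0.0852 FPKM in any group. Etfdh, at 4.20 to 4.50 FPKM in the controls and 4.87 to 5.99 in ClpX cKO, rose there by 0.26 ± 0.09 (adjusted p = 0.028), a call lost without ClpX cKO 3 (0.19, adjusted p = 0.090) and without any 1 of the controls (adjusted p = 0.052 to 0.076).

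Unsaturated chains need the isomerase Eci1 and the reductase Decr1. Eci1 was at 5.57, 6.30 and 4.77 FPKM in the controls, 7.28, 7.54 and 7.73 in ClpP cKO and 8.76, 8.85 and 13.3 in ClpX cKO. It rose in ClpX cKO by 0.77 ± 0.15 (adjusted p = 0.0024), with 0.39 in ClpP cKO (adjusted p = 0.066), and a named pseudogene of it in the table reached at most 2.17 FPKM. Decr1, at 2.97 to 3.19 FPKM in the controls and 3.43 to 4.86 in ClpX cKO, was not called (0.28, adjusted p = 0.078). Over the 17 fatty acid oxidation genes, 4 rose and 1 fell in ClpP cKO (median 0.29), and 11 rose and 1 fell in ClpX cKO (median 0.57). Their summed FPKM was 215 ± 4.95 in the controls, followed by 237 ± 4.55 in ClpP cKO and by 270.1 ± 31.1 in ClpX cKO (n = 3 each), and it was also highest in ClpX cKO with the libraries' own totals, at 198 ± 2.85, 248 ± 4.66 and 290.4 ± 36.1.

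**Figure D3:**
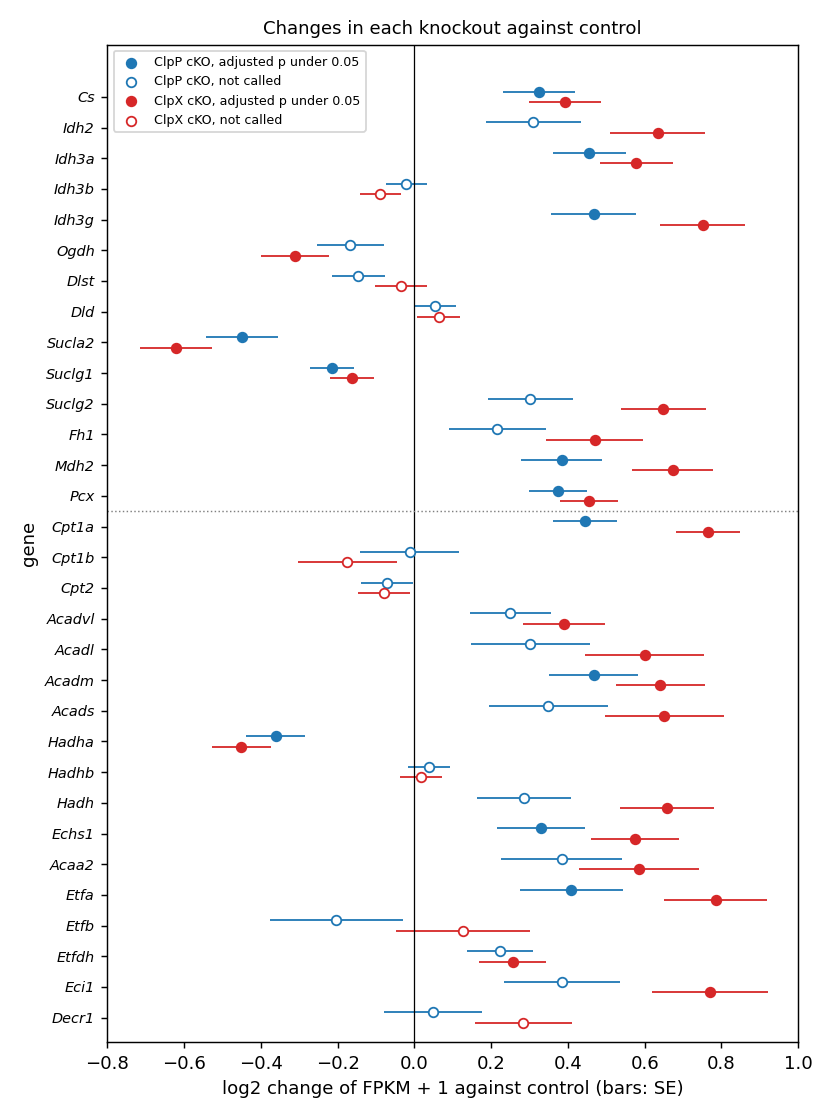
Points give the fitted log2 change of FPKM + 1 for each of the 31 genes in ClpP cKO and ClpX cKO against control, and bars 1 SE. The changes run from -0.62 for Sucla2 to 0.78 for Etfa, both in ClpX cKO.

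Between the knockouts, 24 of the 31 genes had a positive fitted change in ClpX cKO against ClpP cKO, with a median of 0.17, but 0 rose and 0 fell in limma, where 8 had an unadjusted p under 0.05. The background was as low, with 0.0463% of tested genes higher and 0.0579% lower. Cpt1a had the smallest adjusted p (0.32, adjusted p = 0.086), and it was the 1 gene that rose with voom on the recovered reads (0.38, adjusted p = 0.047). Voom with median-of-ratios factors called 0 in either direction. The outcome depended on ClpX cKO 1: without it, Idh2, Mdh2, Cpt1a, Acadl, Hadh and Etfa rose and Sucla2 fell, with changes of 0.38 to 0.50 and of -0.27. Over all genes, leaving out ClpX cKO 1 took the calls from 18 to 4758.

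Libraries of the ClpX cKO group differed among themselves more than those of the other groups. The median coefficient of variation of the 31 genes was 6.14% over the controls, 5.45% over ClpP cKO and 12.5% over ClpX cKO. ClpX cKO 3 had the highest value of its group for all 19 genes that rose in ClpX cKO, while over all genes that rose there it was highest for 69.1% of 5548. Without ClpX cKO 3, 18 genes rose and 3 fell in ClpX cKO, with a median of 0.36. In ClpP cKO against control, leaving out ClpX cKO 3 raised the number that rose from 9 to 17, through the shared estimate of the spread, and leaving out Control 1, ClpP cKO 2 or ClpP cKO 3 lowered it to 5. The calls of Idh3a, Idh3g, Pcx, Cpt1a and Acadm in ClpP cKO held under all alternatives run, 5 of the 12 calls there, while those of Cs, Mdh2 and Etfa were lost in 4, 4 and 7 of 22 alternatives, each time including the omission of Control 1, ClpP cKO 2 or ClpP cKO 3, and 18 of the 23 calls in ClpX cKO did so, all but those of Ogdh, Sucla2, Suclg1, Hadha and Etfdh.

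Direction went loosely with transcript level. Over the 31 genes, Spearman's rho between mean FPKM over the 9 libraries and the log2 change was -0.30 in ClpP cKO and -0.34 in ClpX cKO, and over the 12827 tested protein-coding genes, which share the same libraries, it was -0.28 and -0.30. At a level of 25 FPKM, chosen after the values were seen, 8 genes lay at or above, namely Idh3b, Ogdh, Dld, Sucla2, Suclg1, Cpt2, Hadha and Acaa2. Of these, 0 rose and 3 fell in ClpP cKO, and 1 (Acaa2) rose and 4 fell in ClpX cKO. Of the other 23 genes, 9 rose and 0 fell in ClpP cKO, and 18 rose and 0 fell in ClpX cKO. Because the cut was chosen with these values in view, the 0 that fell below it is a description and not a test. Among protein-coding genes at or above 25 FPKM, 11.8% rose and 53.3% fell in ClpP cKO, and below it 29.1% rose and 16.5% fell. At or above that level 17.7% rose and 62.0% fell in ClpX cKO, and below it 45.3% rose and 23.1% fell. The split of the members by level was thus also a feature of the other genes of these libraries.

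**Figure D4:**
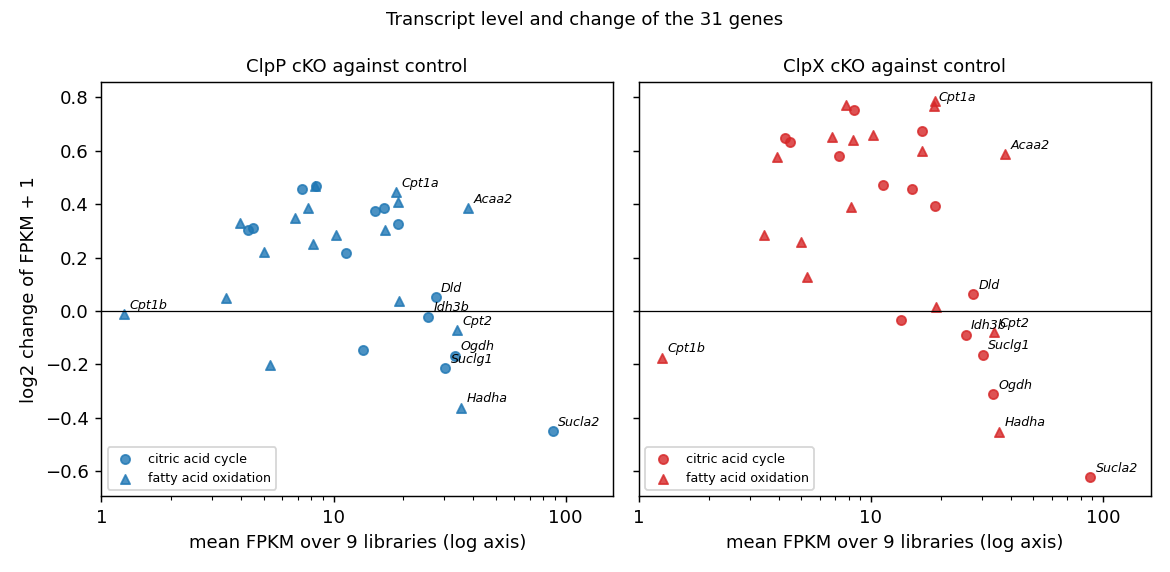
Mean FPKM over the 9 libraries (log axis) against the fitted log2 change for the 31 genes, in ClpP cKO (left) and ClpX cKO (right); circles are cycle genes and triangles fatty acid oxidation genes. The called decreases (Sucla2, Suclg1, Hadha, and Ogdh in ClpX cKO) lie above 25 FPKM, where Acaa2 is the called increase.

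Cell type markers changed in both directions, depending on the list. Over all tested genes 20.7% were higher and 24% lower in ClpP cKO, and 32.1% and 33.5% in ClpX cKO. Protein-coding genes had shares of 25.8% and 23.5% in ClpP cKO, and 40.1% and 30.5% in ClpX cKO. Of 15 tested Sertoli cell markers, 15 rose in each knockout (median 0.53 in ClpP cKO and 0.93 in ClpX cKO), and of 12 spermatogonial markers 7 and 10 rose and 0 and 1 fell (0.39 and 0.70). Leydig cell markers rose for 1 and 3 of 9 (summed FPKM 244 to 443 in the controls, 412 to 601 and 402 to 631), peritubular and stromal markers for 3 and 6 of 8, and immune markers for 3 and 8 of 9, with 0 falling in these lists. Of 6 endothelial and erythroid markers 0 rose in ClpP cKO, and 1 rose and 1 fell in ClpX cKO. Of 12 elongating spermatid markers 12 fell in each knockout (median -1.27 and -2.33), of 12 round spermatid markers 11 and 12 fell, and of 10 pachytene and diplotene markers 6 and 7 fell and 0 and 1 rose. The part of these differences in the changes of the 31 genes was not tested.

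Other genes of the pathways were counted from lists of their enzymes. The background for all these counts was 20.7% of tested genes higher and 24% lower in ClpP cKO, and 32.1% and 33.5% in ClpX cKO. Among protein-coding genes alone it was 25.8% and 23.5%, and 40.1% and 30.5%. A gene under 1 FPKM in the controls could be tested only if it was higher in a knockout. Of 19 other tested enzymes of the cycle and its shuttles, 5 rose and 2 fell in ClpP cKO (median 0.18) and 13 rose and 2 fell in ClpX cKO (median 0.39). The smallest adjusted p in ClpX cKO belonged to Ogdhl, a relative of Ogdh, which rose by 0.58 and 1.03, to Glud1, glutamate dehydrogenase, which rose by 0.63 and 1.03, and to Acly, ATP citrate lyase, which rose by 0.50 and 0.77. Ogdhl was at 10.7 ± 0.479 FPKM in the controls, followed by 16.4 ± 0.977 in ClpP cKO and by 22.9 ± 3.59 in ClpX cKO (n = 3 each). Sdha, the flavoprotein of succinate dehydrogenase, rose in ClpX cKO by 0.22 (adjusted p = 0.028).

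The pyruvate dehydrogenase complex supplies acetyl-CoA to the cycle. Of 14 tested genes of the complex and its regulators, 3 rose and 2 fell in ClpP cKO, and 4 rose and 5 fell in ClpX cKO, with medians of 0.03 and -0.02. These counts were near the background shares of all tested genes. Pdp2, among the 4 that rose in ClpX cKO, was at 0.928 FPKM in the controls and passed the filter only through its knockout values. Pdha1, the X-linked E1 subunit, rose by 0.36 and 0.72 from 1.45 ± 0.216 FPKM, and Pdpr, the phosphatase regulatory subunit, rose by 0.38 and 0.59. Mpc2, a subunit of the mitochondrial pyruvate carrier, fell by 0.42 and 0.68. Pdha2, the germ cell form of Pdha1, was at 82.6 ± 3.60, 85.2 ± 3.77 and 71.7 ± 4.75 FPKM (n = 3 each), and its fall by 0.20 in ClpX cKO (adjusted p = 0.035) had the opposite sign under quantile normalization, own totals and voom. The ratio of Pdha2 to Pdha1 went from 57.5 ± 6.49 to 40.0 ± 3.56 and 24.1 ± 5.60 (exact permutation p = 0.1 for each knockout).

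Of 21 other genes of mitochondrial fatty acid oxidation and related acyl-CoA steps, 8 rose and 2 fell in ClpP cKO (median 0.27) and 13 rose and 1 fell in ClpX cKO (median 0.39). Echdc3, Acad12 and Acot2, at 0.833, 0.844 and 0.890 FPKM in the controls, passed the filter only through their knockout values. They are among the 13, and Echdc3 is among the 8, so these counts were partly set by the filter. This list also holds enzymes of amino acid breakdown (Ivd, Acadsb, Acad8 and Gcdh), Mcat of fatty acid synthesis and Acacb, which makes malonyl-CoA. Ivd, Acadsb, Acad8 and Acacb were among the 8 that rose in ClpP cKO, so the count is not one of fatty acid oxidation alone. Ivd and Acadsb, dehydrogenases of branched-chain acyl-CoAs, rose by 0.51 and 0.95 and by 0.38 and 0.58. Cpt1c, the transferase paralog known from neurons, fell by 0.49 and 0.65, from 18.1 ± 0.230 FPKM to 12.6 ± 0.943 and 11.2 ± 1.45, opposite to Cpt1a. Slc25a20, the carnitine-acylcarnitine carrier, was not called, with changes of -0.03 and -0.08. Of 11 tested acyl-CoA synthetases, which activate fatty acids, 5 rose and 4 fell in ClpP cKO and 5 rose and 5 fell in ClpX cKO. Acsbg1 rose by 0.59 and 1.01, Acsbg2, the testis paralog, fell by 0.92 and 1.72, and Acsl1 had changes of -1.01 and -1.81, both called. Of 12 tested genes of peroxisomal oxidation 4 rose and 2 fell, then 7 rose and 2 fell, and the acyl-CoA transporter Abcd3 rose by 0.75 in ClpX cKO. Abcd2, counted among the genes that rose, was at 0.891 FPKM in the controls. It passed the filter only through its knockout values, so its rise was not read as a result.

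Of 7 tested ketone body enzymes, 2 rose and 3 fell in ClpP cKO, and 3 rose and 3 fell in ClpX cKO. Oxct2a and Oxct2b, germ cell forms of the transferase that uses ketone bodies, fell by 2.58 and 2.71 in ClpX cKO, with the caution that near-identical copies can share reads. Oxct1, the widely expressed form, fell by 0.26 and 0.37. Of 8 tested transcription regulators of the pathway 3 rose in ClpP cKO and 6 in ClpX cKO, and 0 fell, with Klf15 and Rxrb rising by 0.81 and 0.63 in ClpX cKO. Ppard, counted among the 6, was at 0.694 FPKM in the controls and passed the filter only through its knockout values. Its rise was therefore not read as a result. Esrra was not called, and Ppara and Ppargc1a stayed under the filter, at 0.828 ± 0.112 and 0.684 ± 0.107 FPKM in the controls. Ppargc1a was lower in the knockouts, at 0.440 and 0.447 FPKM, and was therefore not tested, so the count of 0 that fell was partly set by the filter. Of 8 genes for lipoylation and iron-sulfur carriers 1 rose and 3 fell in ClpP cKO, and 3 rose and 3 fell in ClpX cKO, where Isca1 fell by 0.55 and Fdxr and Glrx5 rose by 0.52 and 0.61.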

How the data were processed

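Gene expression was measured by RNA sequencing (SMARTER mRNA-Seq kit, per the labels' protocols) in 9 libraries. The authors deposited FPKM for 54532 genes with a gene length in bases; the build was GRCm38 (mm10) per the submitters' processing notes, and the aligner, counter and strand setting are not given in the sources used here. Multiplying FPKM by gene length gave whole multiples of a library-specific unit for 100% of values (within 0.01 of that unit), and these multiples served as reads per gene. Groups were taken from the sample titles. Genes averaging at least 1 FPKM were analysed as log2(FPKM + 1) in a single linear model of the 9 libraries with a trended variance prior (limma 3.58.1, R 4.3.3), which leaves 6 residual degrees of freedom. P-values were adjusted by Benjamini-Hochberg over all tested genes of each of the 3 comparisons, with a threshold of 0.05, and the script was tested on simulated data. Folds and changes are on the FPKM + 1 scale, which understates changes of low genes. Ratios of genes within a library were compared by an exact two-sided permutation test. Exon overlaps came from GENCODE M21, where 28 of the 31 genes have the table's start and end, and promoters from RefSeq. Summaries used Python 3.11.15, pandas 2.3.3, numpy 2.4.6 and scipy 1.17.1, and plots matplotlib 3.10.9.

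The members, lists and tests were chosen with earlier results of these data known. All 31 members were named. From each other pathway list, up to 3 genes with the smallest adjusted p in ClpX cKO against control were named, with Clpp, Clpx, Pdha1, Pdha2, Sdha, Slc25a20, Oxct1, Oxct2a, Acsbg2, Ppara, Ppargc1a and Esrra always named. Some genes that this rule names are not reported here. Alternatives were a pseudocount of 0.1, no filter, a mean of at least 5 FPKM, median-of-ratios, quantile and own-total scaling, fits on 6 libraries, a robust prior, a replicate block, only protein-coding genes, and omission of libraries. Voom on the recovered reads was chosen after seeing the data.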

Additional observations from a re-analysis of the deposited data

How the results depend on the processing

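Of the 31 genes, 9 rose and 3 fell in ClpP cKO. The number that rose was 21 with own totals, 21 with voom on the recovered reads and 17 in the fit on 6 libraries, and 5 to 17 when each library was left out in turn. The number that fell was 0 with quantile normalization and 1 with own totals or voom. In ClpX cKO, where 19 rose and 4 fell, the number that rose stayed within 1.5 times of 19 under each alternative run, and the number that fell was 0 with quantile normalization and 2 with own totals or voom. In ClpX cKO against ClpP cKO, with 0 members called, 1 rose with voom, 0 to 6 rose and 0 to 1 fell when each library was left out, and 5 rose and 1 fell without Control 3 and ClpX cKO 1 together.

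Over all genes, 7722 were called in ClpP cKO and 3617 to 8729 when each library was left out, and 11326 in ClpX cKO, with 6871 at a mean of at least 5 FPKM, where fewer genes are tested. The 18 genes called between the knockouts became 29 with quantile normalization, 89 in the fit on 6 libraries, 828 with voom, 37 with voom and median-of-ratios factors, 5149 without Control 3 and ClpX cKO 1, and 0 to 4758 when each library was left out. Reversed values were, for ClpP cKO, Suclg1 at 0.0014 with quantile normalization. For ClpX cKO, quantile normalization gave Ogdh 0.0323, Suclg1 0.15, Cpt2 0.2607 and Pdha2 0.2776, own totals gave Suclg1 0.0553 and Pdha2 0.0198, and voom gave Suclg1 0.0582, Pdha2 0.0202 and Dlst 0.188. The cause of these changes was not tested. With the replicate number as a block, 10 members rose and 3 fell in ClpP cKO, 18 rose and 3 fell in ClpX cKO, and 1 gene of all was called between the knockouts; deviations of same-numbered libraries correlated at -0.07 to 0.234, so the numbers were not read as a pairing. The planned fits with edgeR and with voom and TMM factors were not run, because the deposited unit is FPKM. Depth limits Cpt1b, Etfb and Eci1 most, with 48, 65 and 71 reads in their lowest libraries.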
